A study of Arabidopsis thaliana with 12 samples.

Results

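NDB3 (AT4G21490) and NDB4 (AT2G20800) are nuclear genes for alternative NAD(P)H dehydrogenases of plant mitochondria. They were picked by locus from the probe annotation, and each had 1 probe set assigned to it alone, 2 of the 22746 probe sets tested and 2 of 13356 genes with a probe set of their own. Their RNA was measured in above-ground parts of Arabidopsis thaliana on 12 Affymetrix arrays, and all values are log2 RMA signals as the authors deposited them. The groups were untreated Col-0 wild type (n = 2), heated Col-0 wild type (n = 3), an untreated msh1 recA3 double mutant in the Col-0 background (n = 4) and the same double mutant after heat (n = 3). All plants were 8 weeks old and grown at 24 °C, and heated plants were kept at 37 °C for 2 h by the design text or about 24 h by the treatment protocol, a disagreement that the sources used here do not settle. The labels call the replicates biological but do not say how many plants went into each or which mutant alleles were used, so p-values measure the spread between these samples.

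Alternative, or type II, NAD(P)H dehydrogenases are single proteins that pass electrons from NADH or NADPH to ubiquinone without pumping protons, so that electrons can enter the respiratory chain without complex I. The NDB proteins sit on the outer face of the inner mitochondrial membrane and oxidise NAD(P)H of the cytosol, whereas the NDA proteins face the matrix and NDC1 is found in mitochondria and plastids. Together with the alternative oxidases they form a respiratory path that conserves little energy, and some of their genes respond to mitochondrial stress. MSH1 and RECA3, the genes mutated here, encode a MutS homologue and a RecA homologue that limit recombination of organelle DNA.

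Some facts of the whole series bear on these values. The leaf genes RCA, for Rubisco activase, and LHCB4.1, for an antenna protein, had group means of 13.1 to 13.8, and the small heat shock protein gene HSP22.0 (AT4G10250) lay at 3.80 in both untreated groups and at 12.9 in both heated groups. The lower quartile of the arrays was 3.67 to 3.79 and their median 5.03 to 5.27. On the second principal component, which held 10.2% of the variance and set the genotypes apart, replicate 3 of the heated double mutant scored 8.73 against -22.5 and -26.8 for replicates 1 and 2, and the untreated double mutant ran from -30.9 to -0.964.

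NDB3 was low in the wild type and high in the untreated double mutant, with the heated double mutant in between. Its signal was 4.82 and 4.64 in the untreated wild type, and 4.97, 4.82 and 5.28 in the heated wild type. It was 7.14, 6.84, 7.65 and 7.55 in the untreated double mutant, and 5.79, 6.23 and 5.90 in the heated double mutant, in the order of replicates. All 7 double mutant arrays lay above all 5 wild-type arrays, and the untreated and heated double mutant did not overlap. Within its arrays NDB3 stood at percentiles 43.9 to 52.7 in the wild type, 69.9 to 79.9 in the untreated double mutant and 57.0 to 62.6 in the heated one. Detection calls were not used here, so the wild-type signal of NDB3, around the array medians, was not shown to exceed background.

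NDB4, whose protein is known to prefer NADH, showed the same order of groups at lower signals. The untreated wild type gave 3.97 and 4.26, and the heated wild type 4.20, 4.07 and 4.41. The untreated double mutant gave 6.73, 6.54, 6.86 and 7.09, and the heated double mutant 5.07, 5.47 and 5.35. Here too all double mutant arrays lay above all wild-type arrays, while untreated and heated wild type overlapped. In the wild type NDB4 stood at percentiles 31.6 to 40.6 of its arrays, near the lower quartile, so its wild-type signal was not shown to exceed background and fold changes against it may be understated.

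**Figure D1:**
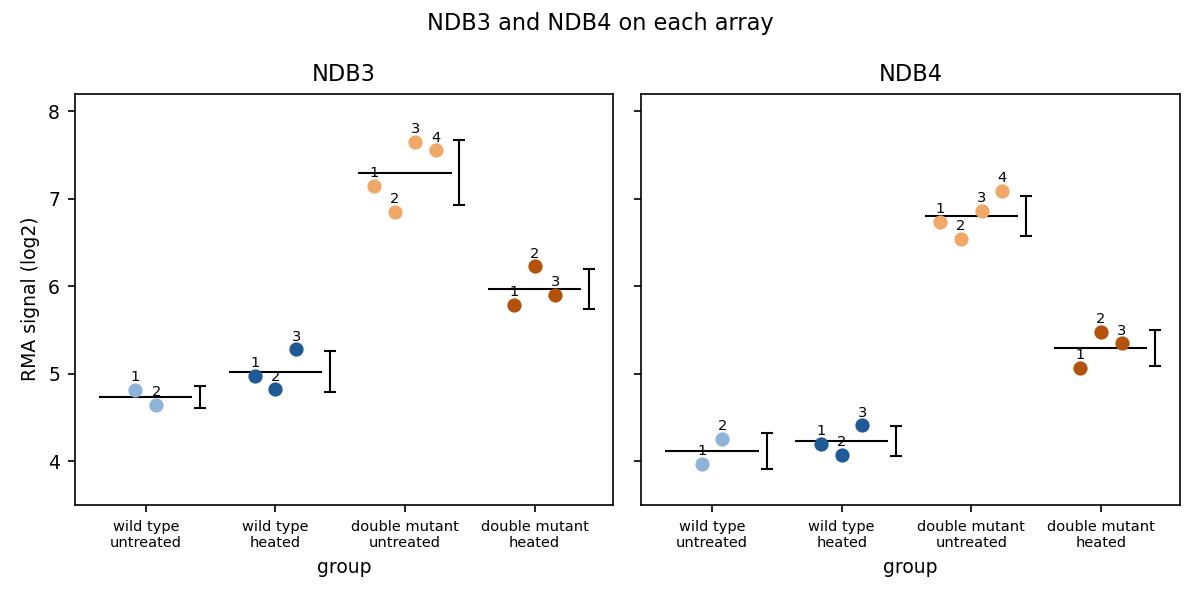
RMA signal (log2) of NDB3 and NDB4 on each of the 12 arrays, by group, with replicate numbers beside the points, a line at each group mean and a bar of ± 1 SD to its right. For both genes the untreated double mutant is highest (means 7.30 and 6.81), the heated double mutant is next (5.97 and 5.30), and both wild-type groups lie below 5.3.

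The mean of NDB3 was 4.73 ± 0.12 (SD, n = 2) in the untreated wild type, 5.02 ± 0.23 (SD, n = 3) in the heated wild type, 5.97 ± 0.23 (SD, n = 3) in the heated double mutant and 7.30 ± 0.37 (SD, n = 4) in the untreated double mutant. For NDB4 the means in the same order were 4.11 ± 0.20, 4.23 ± 0.17, 5.30 ± 0.21 and 6.81 ± 0.23 (SD). Between the lower neighbours, untreated and heated wild type, the difference passed the test for neither gene, and their arrays overlapped for NDB4 but not for NDB3. The spread inside the untreated double mutant had a shared part: replicates 1 and 2 were the lower arrays and replicates 3 and 4 the higher ones for both genes, the same division as on the second principal component. Replicate 3 of the heated double mutant, which lay toward the wild type on that component, was the middle value of its group for both genes.

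The untreated genotypes show what sets the double mutant apart under normal conditions. Both genes were higher in the double mutant. NDB3 was higher by 2.57 ± 0.22 (moderated SE of limma) on the log2 scale, or 5.92-fold (adjusted p = 0.000125). NDB4 was higher by 2.69 ± 0.17, or 6.47-fold (adjusted p = 1.2e-05). These values are measured against a wild-type signal that may lie at background for NDB4 and was not shown to exceed it for NDB3. Every p from limma given here was adjusted by Benjamini-Hochberg over all 22746 probe sets at a threshold of 0.05. In this comparison 2.23% of all probe sets were called higher, and in 19.5% the double mutant arrays all lay above the wild-type arrays, as they did for both genes. Both calls held in all 20 alternatives, with values of 2.38 to 2.87 for NDB3 and 2.54 to 2.86 for NDB4. In whole shoots a change in the share of cells that express a gene and a change of RNA per cell cannot be told apart.

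Heat in the double mutant was compared to learn how its transcripts respond to heat. NDB3 fell by 1.32 ± 0.19 (SE), leaving 0.399 of the untreated level (adjusted p = 0.000276), and NDB4 fell by 1.51 ± 0.15 (SE), leaving 0.351 (adjusted p = 1.32e-05). The 3 heated arrays lay below the 4 untreated ones for both genes. This was a common pattern in the comparison, where 20.2% of probe sets were called lower and 21.3% did not overlap in that direction. The falls of NDB4 and NDB3 ranked 354 and 576 from the lowest. Both calls held in all 20 alternatives, with values of -1.63 to -1.18 for NDB3 and -1.68 to -1.36 for NDB4.

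In the wild type neither gene passed the test for heat. NDB3 differed by 0.29 ± 0.23 (SE; adjusted p = 0.414, unadjusted 95% interval -0.21 to 0.80), and NDB4 by 0.11 ± 0.17 (SE; adjusted p = 0.704, interval -0.27 to 0.50). In this comparison 26.5% of all probe sets were called. The 3 heated arrays of NDB3 lay above the 2 untreated ones, as in 27% of probe sets, but replicate 2 of the heated wild type and replicate 1 of the untreated wild type were both at 4.82. The intervals hold rises of up to 0.80 and 0.50, so a small rise was not detectable with these arrays.

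After heat the double mutant was still above the wild type for both genes, by about 1 on the log2 scale, in place of more than 2.5 before it. The difference was 1.07 ± 0.16 (SE), or 2.1-fold, for NDB4 (adjusted p = 0.0126). For NDB3 it was 0.95 ± 0.21 (SE), or 1.93-fold, which did not pass (adjusted p = 0.0607, interval 0.50 to 1.40). In neither gene did the 3 heated double mutant arrays overlap the 3 heated wild-type arrays, as in 7.04% of probe sets, while 0.497% were called higher. The NDB4 call ended in 3 of 20 alternatives: without replicate 1 of the heated wild type (adjusted p = 0.0655), without replicate 2 of the heated double mutant (adjusted p = 0.0592) and in a fit of only the compared groups (adjusted p = 0.0586). NDB3 passed in 6 of 20, with adjusted p from 0.0295 to 0.248 over all of them.

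The difference of the heat responses, double mutant minus wild type, tests whether heat acted unequally in the genotypes. It was -1.62 ± 0.23 (SE) for NDB4 (adjusted p = 0.0383, interval -2.12 to -1.13) and -1.62 ± 0.30 (SE) for NDB3 (adjusted p = 0.114, interval -2.27 to -0.96). Here 0.0528% of probe sets were called lower, NDB4 among them. A fall of NDB4 with heat in the wild type may not show at its low signals there, which bears on this difference. Whether the same holds for NDB3 was not tested. The NDB4 call was not stable. It ended in 12 of 19 alternatives, among them the replicate block (-1.47, adjusted p = 0.121), arrays centred on reference genes (-1.42, adjusted p = 0.0913) and the removal of any 1 array other than replicate 2 of the untreated or replicate 3 of the heated double mutant, with adjusted p from 0.0569 to 0.171 where it ended. The size moved less, from -1.79 to -1.42 over the same alternatives. NDB3 passed in 1 of 19, without replicates 1 and 2 of the untreated double mutant (-1.92, adjusted p = 0.0224).

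The changes of NDB3 and NDB4 were set against each other within arrays. The quantity tested was the signal of NDB4 minus that of NDB3 within each array, whose level has no meaning across probe sets but whose change between groups shows unequal movement. It changed by -0.18 with heat in the wild type (-0.41 to 0.055 with 1 array left out, turned without replicate 2 of the untreated wild type) and by -0.19 with heat in the double mutant. Between genotypes it changed by 0.13 without heat (-0.10 to 0.36 with 1 array left out) and by 0.12 after it. By two-sided exact permutation tests, 4 in all, p was 0.6, 0.229, 0.667 and 0.2 in that order, and 0.667, 0.457, 0.667 and 0.457 after Benjamini-Hochberg adjustment. The smallest p that these group sizes allow was 0.2, 0.0571, 0.133 and 0.1, so none could reach 0.05 and the tests do not show that the genes moved alike. Apart from heat in the double mutant, these changes also rest on both genes in the wild type, at signals not shown to exceed background. For the difference of heat responses the change of NDB4 minus NDB3 was -0.0082, which was not tested.

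Within groups the order of the arrays was partly shared. In the heated wild type both were highest in replicate 3 and lowest in replicate 2, and in the heated double mutant both were highest in replicate 2 and lowest in replicate 1. In the untreated double mutant both were lowest in replicate 2, with NDB3 highest in replicate 3 and NDB4 in replicate 4. In the untreated wild type the order was opposite. Both probe sets bear the plain suffix for probes designed against a single transcript. Probe sequences were not used here, so signal shared between these related genes was not tested.

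Of the other alternative NAD(P)H dehydrogenase genes 3 of 5 had a probe set of their own: NDB1, NDB2 and NDC1. None of the 3 was called in either genotype comparison, in heat of the double mutant or in the difference of responses. Since 2.23% of all probe sets were called higher between untreated genotypes, 0.497% after heat and 0.0528% lower in the difference of responses, 0 of 3 is near the background there and nothing is read from it. For heat in the double mutant 13.8% were called higher and 20.2% lower, and nothing is read from 0 of 3 genes there either. In the same list 1 rose with heat in the wild type, where 13.7% of probe sets were called higher. Their median log2 difference in the untreated genotypes was 0.06, against 0.02 for all probe sets. NDA1 and NDA2, the alternative oxidases, the plastid terminal oxidase and the uncoupling proteins and dicarboxylate carriers had no probe set assigned to them alone and were not analysed here.

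NDB2, known as the NADH dehydrogenase of this group that is often induced with alternative oxidase under stress, had signals of 7.46 and 6.92 in the untreated wild type and 7.99, 8.54 and 7.92 in the heated wild type. It gave 8.44, 7.64, 7.96 and 7.85 in the untreated double mutant and 8.50, 8.79 and 7.96 in the heated double mutant. It rose with heat in the wild type by 0.96 ± 0.29 (SE; adjusted p = 0.0304), a call that ended after quantile normalization (adjusted p = 0.0543), without replicate 2 of the untreated wild type (adjusted p = 0.236) and without replicate 2 of the heated wild type (adjusted p = 0.101). The untreated double mutant arrays all lay above the untreated wild type for NDB2, yet the difference of 0.78 ± 0.28 (SE) did not pass (adjusted p = 0.161, interval 0.17 to 1.39). With heat in the double mutant NDB2 differed by 0.45 ± 0.24 (SE; adjusted p = 0.189), a positive value where NDB3 and NDB4 fell.

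NDB1, whose protein is known to oxidise NADPH, stayed between 5.95 and 6.59 on all 12 arrays. Its genotype difference without heat was 0.05 ± 0.15 (SE; adjusted p = 0.897, interval -0.28 to 0.38). NDC1 lay between 6.41 and 7.09, with both untreated wild-type arrays at 6.57, and its genotype difference without heat was 0.06 ± 0.16 (SE; adjusted p = 0.898). The intervals of NDB1, NDB2 and NDC1 in this comparison all ended below those of NDB3 (2.09 to 3.04) and NDB4 (2.33 to 3.06), and the differences between these genes were not tested.

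**Figure D2:**
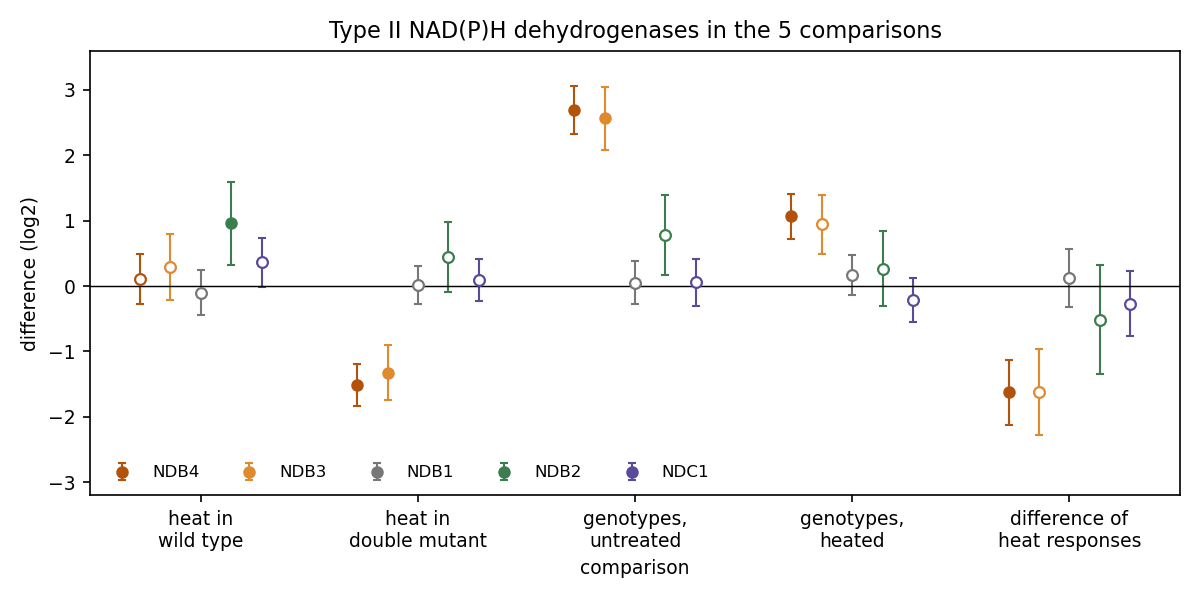
Log2 differences of the 5 measured alternative NAD(P)H dehydrogenase genes in the 5 comparisons, with unadjusted 95% intervals from limma. Filled points passed an adjusted p of 0.05 and open points did not. NDB3 and NDB4 are above 2.5 between untreated genotypes and below -1.3 for heat in the double mutant, while NDB1, NDB2 and NDC1 lie between -0.6 and 1 throughout.

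Genes known to respond when mitochondria fail formed a second list, of which 7 of 14 had a probe set of their own. In the untreated double mutant 7 of 7 were called higher, against 2.23% of all probe sets. Their median difference was 3.03, against 0.02 for all probe sets. This list was drawn up with such results known and is no independent evidence. AT5G51440, the heat shock protein gene HSP23.5, was higher by 1.08 ± 0.18 (SE; adjusted p = 0.0131). It lost its call in the fit of only the compared groups (adjusted p = 0.0806) and with the replicate block (adjusted p = 0.0624). The call was also lost without replicate 2 of the untreated wild type, where AT5G51440 differed by 0.74.

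Heat divided this list. In the double mutant, where 20.2% of probe sets were called lower, AT2G04050 fell by 1.33 ± 0.20 (SE; adjusted p = 0.000339) and AT2G04070 fell by 1.86 ± 0.20 (SE; adjusted p = 2.48e-05). In the wild type neither passed, with 0.25 ± 0.24 and -0.12 ± 0.23 (SE). Group means there were 3.48 and 3.73 for AT2G04050, near the arrays' lower quartile, and 4.24 and 4.11 for AT2G04070, so a fall might not show. In the double mutant 3 of the 7 rose, where 13.8% of probe sets were called higher, namely AT2G21640 by 1.26 ± 0.15 (SE), AT5G51440 by 7.06 ± 0.16 (SE) and AT5G43450 by 0.46 ± 0.11 (SE). The last of these was not called without replicates 1 and 2 of the untreated double mutant (adjusted p = 0.0780).

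The wild type showed 5 of the 7 genes rising with heat and none falling, where 13.7% of all probe sets were called higher. AT2G21640 rose there by 3.49 ± 0.18 (SE), AT2G41730 by 3.44 ± 0.23 (SE) and AT5G43450 by 1.40 ± 0.13 (SE). The largest rise, 7.96 ± 0.19 (SE), was that of the heat shock protein gene AT5G51440. The probe set of AT2G41730 ends in _x_at, which marks probes shared with further transcripts. AT5G09570 rose by 0.63 ± 0.15 (SE; adjusted p = 0.00954), a call that ended without replicate 1 of the untreated wild type (adjusted p = 0.0907).

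The difference of heat responses was called for 2 of the 7 genes, both lower, AT2G21640 at -2.23 ± 0.24 (SE) and AT2G41730 at -3.10 ± 0.30 (SE; each adjusted p = 0.00857), where 0.0528% of all probe sets were called lower. The count was 4 with array weights, 1 without replicate 1 and 0 without replicate 2 of the untreated wild type. Their negative difference came with a rise in the wild type, whereas NDB4 fell in the double mutant and showed no called change in the wild type. For AT2G04050 and AT2G04070 the difference was -1.58 ± 0.31 (SE; adjusted p = 0.138) and -1.74 ± 0.31 (SE; adjusted p = 0.0993), measured against the low wild-type signals above. With array weights both passed (adjusted p = 0.0445 and 0.0397), and AT2G04050 also passed without replicate 3 of the heated double mutant (adjusted p = 0.0366). The call of AT2G21640 ended without either replicate of the untreated wild type (adjusted p = 0.0556 and 0.0532), and that of AT2G41730 without replicate 2 (adjusted p = 0.0509).

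After heat 5 of the 7 were higher in the double mutant, against 0.497% of all probe sets, and this count fell to 2 in the fit of only the compared groups. It was also 2 without replicate 1 or replicate 2 of the heated wild type, and 3 without its replicate 3 or without replicate 1 or 2 of the heated double mutant. AT5G09570 differed by 4.36 ± 0.14 (SE; adjusted p = 4.75e-08), close to its 4.65 ± 0.14 (SE) before heat, where NDB4 went from 2.69 to 1.07. AT5G51440 differed by 0.17 ± 0.17 (SE; adjusted p = 0.763).

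**Figure D3:**
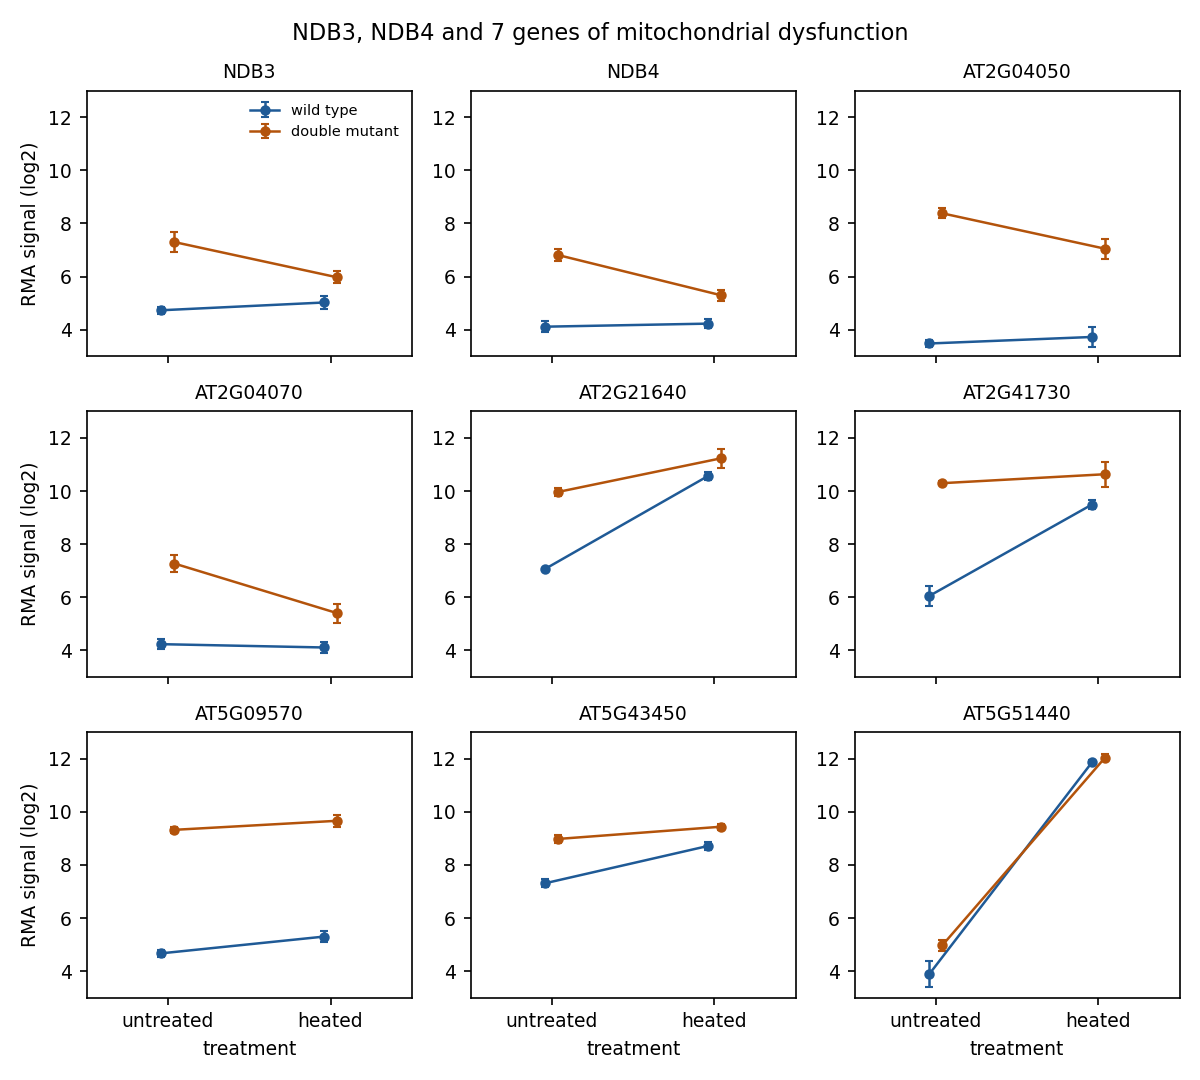
Group means of the RMA signal (log2) without and with heat, in the wild type and the double mutant, for NDB3, NDB4 and the 7 measured genes of mitochondrial dysfunction. Bars are ± 1 SD (n = 2, 3, 4 and 3). NDB3, NDB4, AT2G04050 and AT2G04070 are the panels where the double mutant line goes down, with differences of -1.86 to -1.32.

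Genes with the most similar profile were sought among the other 13512 probe sets with a single gene. The measure was the root mean square difference of log2 signals over the 12 samples, each probe set first centred on its own mean, and it takes no account of the groups or of shared arrays. NDB4 was the nearest to NDB3, and NDB3 the nearest to NDB4, at 0.19. The second nearest were AT2G03130 for NDB3 at 0.37 and AT2G04070 for NDB4 at 0.34. Over the 4 group means NDB3 and NDB4 were again nearest to each other, at 0.11.

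The 8 nearest genes of NDB3 and of NDB4 had 6 others in common: AT2G03130, AT2G32020, AT2G04070, the jacalin-related lectin genes JAL33 and JAL23, and PYK10, for a beta-glucosidase of ER bodies. ATSBT5.2 was near NDB3 alone and AT5G45510 near NDB4 alone. AT2G03130 was higher by 2.1 ± 0.16 (SE; adjusted p = 6.96e-05) in the untreated double mutant and fell by 1.42 ± 0.14 (SE; adjusted p = 1.96e-05) with heat there, but its wild-type mean of 3.67 was at the lower quartile. AT2G32020 went from 4.64 in the untreated wild type to 6.97 in the untreated and 6.02 in the heated double mutant. After heat it was still higher by 1.36 ± 0.23 (SE; adjusted p = 0.0229), a call that ended in 4 of 20 alternatives. Among them was the fit of only the compared groups (adjusted p = 0.127). The call also ended without replicate 1 or 2 of the heated wild type (adjusted p = 0.112 and 0.0774). Leaving out replicate 2 of the heated double mutant ended it as well (adjusted p = 0.0592). JAL33 was higher by 1.70 ± 0.29 (SE; adjusted p = 0.0156) before heat and differed by 0.34 ± 0.27 (SE; adjusted p = 0.703) after it. Its call before heat ended in 3 of 20 alternatives. Modelling a replicate block ended it (adjusted p = 0.0660), as did fitting just the untreated groups (adjusted p = 0.0716). The call was also lost without replicate 2 of the untreated wild type, where JAL33 differed by 1.40. When likeness was taken over the 4 group means, 5 of the 8 stayed among the nearest for each gene.

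PYK10 is best known from roots and was the 1 measured gene of 3 fixed as root markers, and no flower marker of 3 was measured. It was higher in the untreated double mutant by 1.72 ± 0.33 (SE; adjusted p = 0.0234) and fell by 1.73 ± 0.29 (SE; adjusted p = 0.000699) with heat there. The first of these calls ended without replicate 1 or 2 of the untreated wild type (adjusted p = 0.0975 and 0.172) and without replicate 4 of the untreated double mutant (adjusted p = 0.0529). Its signals were 7.47, 8.69, 8.88 and 8.24 in the untreated double mutant and between 5.94 and 6.82 on all other arrays. Within the untreated double mutant PYK10 was lowest in replicate 1 and highest in replicate 3. NDB3 and NDB4 were lowest there in replicate 2, with NDB3 highest in replicate 3 and NDB4 in replicate 4. The part of root or other cells in the levels of NDB3 and NDB4 was not tested. Of 4 leaf markers 2 were measured. RCA was also higher in the untreated double mutant, by 0.46 ± 0.09 (SE; adjusted p = 0.0291), a call that ended in 8 of 20 alternatives, and LHCB4.1 differed by 0.31 ± 0.08 (SE; adjusted p = 0.0575).

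**Figure D4:**
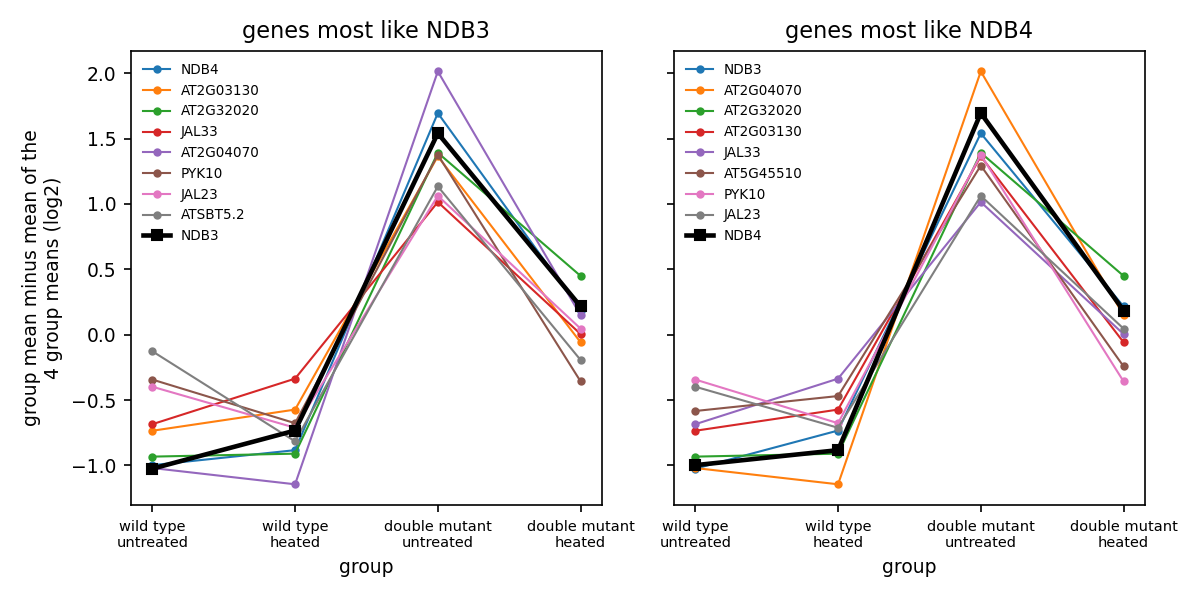
Group means (log2, minus the mean of the 4 group means) of NDB3, NDB4 and the 8 genes with the most similar profiles over the 12 samples. Black squares are NDB3 on the left and NDB4 on the right. In every line the untreated double mutant is highest, as the choice by likeness requires.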

How the data were processed

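The values were used as deposited: per the submitters' processing notes, the authors made log2 signals with RMA in the affy package, versions not given in the sources used here. RMA combines background correction, quantile normalization and a summary over probes. Of 22810 probe sets 64 controls were left out. GEO's annotation gave 13513 of the other 22746 a single gene, 503 several and 8730 none, and 13436 matched RefSeq (TAIR10.1) by gene number. All 12 samples entered 1 limma model of group means (8 residual and 3.22 prior degrees of freedom, prior SD 0.145), with empirical Bayes moderation and two-sided tests, adjusted by Benjamini-Hochberg. The number of arrays limits the precision. Changes of NDB4 minus NDB3 were tested by exact permutation. Replicate numbers were not used to pair samples, except in the alternative with a replicate block. Residuals of same-numbered samples correlated at -0.348 to 0.265, with 3 of 15 above 0.1. They were not compared with those of differently numbered samples, so whether the numbers pair samples was not tested.

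The members, gene lists and tests were chosen with earlier results of these data known. Besides both genes, any measured gene of the lists and the 8 genes most alike in profile could be named. Brief functions come from general knowledge. Alternatives were quantile normalization, centring on 4 measured reference genes, the upper 0.5 of probe sets, a replicate block, trend and robust moderation, array weights, only the compared groups, leaving out each sample, and leaving out 2 untreated double mutants. The fit was tested on simulated data. Software was limma 3.58.1 in R 4.3.3, and SciPy 1.17.1, NumPy 2.4.6, pandas 2.3.3 and matplotlib 3.10.9 in Python 3.11.15.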

Additional observations from a re-analysis of the deposited data

Results flagged for a closer look

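The heat responses of the genotypes differed by limma's test of that difference for 4 named genes. The difference, double mutant minus wild type, was -1.62 for NDB4 (adjusted p = 0.0383), -1.58 for AT2G03130 (adjusted p = 0.0408), -2.23 for AT2G21640 and -3.10 for AT2G41730 (each adjusted p = 0.00857). The call of NDB4 ended in 12 of 19 alternatives and that of AT2G03130 in 12 of 18, with adjusted p up to 0.171 for both. The call of AT2G21640 ended without replicate 1 or 2 of the untreated wild type, and that of AT2G41730 without replicate 2. NDB4 and AT2G03130 had wild-type signals near the arrays' lower quartile. One sample stood far from the other 3 of its group: AT5G09570 was at 9.49 in replicate 4 of the untreated double mutant, against 9.25 to 9.29. This was 1 of 15 such groups examined, and about 1 in 20 stands out by chance. NDB3 and NDB4 had no such sample in the untreated double mutant, the only group large enough to examine.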

How the results depend on the processing

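The untreated genotype difference and the fall with heat in the double mutant kept direction and call for NDB3 and NDB4 in all 20 alternatives. With heat in the wild type neither passed in any, and NDB4 ran from -0.029 to 0.26 over samples left out. After heat NDB4 was 1.07 in the fit of only the compared groups and ran from 0.98 to 1.18 over samples left out, NDB3 from 0.82 to 1.08. NDB3 passed there with the upper 0.5 of probe sets (0.95), trend and robust moderation (0.95), array weights (0.97), without untreated double mutant replicate 2 (0.95), without heated double mutant replicate 3 (0.98) and without 2 untreated double mutants (0.95). For the difference of responses NDB4 was -1.42 with reference centring and -1.47 with the replicate block, and -1.77 to -1.48 over samples left out. NDB3 was -1.92 without 2 untreated double mutants. Reference centring itself moved the median of all probe sets to 0.15 for heat in the double mutant, -0.13 for untreated genotypes and 0.17 for the difference of responses. The replicate block changed the call of neither gene in the other 4 comparisons.

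Counts of called probe sets moved more. Heat in the wild type gave 6027, and 3912 to 6528 over samples left out, the lowest without untreated replicate 1. The untreated genotypes gave 613, against 275 after quantile normalization, 109 with the replicate block, 109 in the fit of only the compared groups, 1469 without 2 untreated double mutants and 113 to 862 over samples left out. The heated genotypes gave 204, against 102 with the block, 683 with array weights, 33 with only the compared groups and 38 to 1061, the highest without heated double mutant replicate 3. The difference of responses gave 17, against 9 with quantile normalization, 10 with reference centring, 7 in the upper 0.5, 5 with the block, 34 with array weights, 55 without 2 untreated double mutants and 1 to 66. Over samples left out NDB4 minus NDB3 ran from -0.41 to 0.055 for heat in the wild type and from -0.10 to 0.36 for untreated genotypes, and kept its sign in the other 2 comparisons.

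Apart from LHCB4.1 with heat in the wild type, directions that turned in other genes belonged to differences called in neither setting. That difference of LHCB4.1 was 0.051 with the values as deposited and not called. After quantile normalization it was -0.27 and called (adjusted p = 0.0270). For heat in the double mutant NDB1 was -0.0031 with array weights, -0.065 without 2 untreated double mutants and -0.15 to 0.16 over samples left out (-0.025 without untreated replicate 1), and NDC1 was -0.045 to 0.25. Between untreated genotypes NDB1 was -0.093 and -0.097, and NDC1 -0.083 and -0.093, with quantile normalization and reference centring, and NDC1 was -0.026 to 0.13 over samples left out. NDB1 ran from -0.045 to 0.27 for the difference of responses, and AT2G04070 from -0.27 to 0.017 for heat in the wild type. There AT2G32020 was -0.037 with reference centring, -0.12 with the replicate block, -0.016 with array weights and -0.097 to 0.12 over samples left out, and LHCB4.1 was -0.0084 with reference centring. RCA was 0.057 with reference centring for heat in the double mutant, and LHCB4.1 -0.025 and 0.072 with quantile normalization for untreated genotypes and the difference of responses. The cause of these changes was not tested.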
